A study of Mus musculus with 4 samples.

Results

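Mitochondrially encoded transcripts of the mouse hypothalamic arcuate nucleus (ARC) were described gene by gene in 4 libraries of single-nucleus RNA. 10 of the 13 mitochondrial rows of the feature table, which holds 31053 genes in all, were included by name: *mt-Atp8*, *mt-Atp6*, *mt-Co1*, *mt-Co2*, *mt-Co3*, *mt-Cytb*, *mt-Nd1*, *mt-Nd3*, *mt-Nd4* and *mt-Nd4l*. They were chosen by earlier results of these same libraries, in which *mt-Atp8* was lower with DOCA-salt, so its difference between treatments is given below as a description and its p values are not independent evidence. All mice were wildtype C57BL/6J males, 10 weeks old at collection. DOCA-salt mice had received deoxycorticosterone acetate with a saline drink for 3 weeks, a model of mineralocorticoid excess, and Sham mice had not. Each library is a pool of mice, with 2 libraries per treatment. Where 4 values follow each other without names, they are of DOCA-salt pools 1 and 2 and then of Sham pools 1 and 2.

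The mitochondrial genome encodes subunits of the respiratory chain and of the ATP synthase, and all but one of its protein-coding genes lie on the same strand and are cut from long shared precursor transcripts. *mt-Atp8* and *mt-Atp6* encode membrane subunits of the ATP synthase (complex V), the *mt-Nd* genes encode subunits of complex I, *mt-Cytb* a subunit of complex III, and *mt-Co1*, *mt-Co2* and *mt-Co3* the catalytic core of complex IV. *mt-Atp8* and *mt-Atp6* share a single bicistronic messenger RNA, as do *mt-Nd4l* and *mt-Nd4*. Mature mitochondrial messengers are made outside the nucleus, and in nuclei they are usually read as carried-over cytoplasmic RNA.

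The 3 shortest of the 10 genes were those with the lowest ratio of DOCA-salt to Sham. They are *mt-Atp8* (chrM:7766-7969, 204 nucleotides), *mt-Nd4l* (chrM:9877-10173, 297 nucleotides) and *mt-Nd3* (chrM:9459-9806, 348 nucleotides), all single-exon coding genes on the plus strand of GRCm38. The sequences of the first 2 are shown because each is the short gene of a shared messenger, and they are from the GENCODE M21 transcripts of that build. Capitals mark the bases that also belong to the next gene, 43 bases shared with *mt-Atp6* in *mt-Atp8* and 7 bases shared with *mt-Nd4* in *mt-Nd4l*. *mt-Nd3* overlaps no other gene.
mt-Atp8: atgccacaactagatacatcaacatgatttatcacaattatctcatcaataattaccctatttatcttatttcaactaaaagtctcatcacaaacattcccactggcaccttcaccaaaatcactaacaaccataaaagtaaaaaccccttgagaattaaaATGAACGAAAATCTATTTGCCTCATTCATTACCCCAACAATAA
mt-Nd4l: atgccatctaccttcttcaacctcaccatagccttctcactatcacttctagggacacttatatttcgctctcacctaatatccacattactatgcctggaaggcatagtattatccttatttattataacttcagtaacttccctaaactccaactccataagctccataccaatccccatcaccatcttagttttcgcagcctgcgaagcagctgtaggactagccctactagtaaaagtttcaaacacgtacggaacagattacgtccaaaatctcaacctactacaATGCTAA

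The overlap makes up 21.1% of *mt-Atp8*, and reads within it cannot be given to *mt-Atp8* or *mt-Atp6* alone, so the counts of both are uncertain there. The same holds for 2.36% of *mt-Nd4l*. The other 7 genes are 681 to 1545 nucleotides long, from *mt-Atp6* (chrM:7927-8607) to *mt-Co1* (chrM:5328-6872). Between them lie *mt-Co2* (chrM:7013-7696), *mt-Co3* (chrM:8607-9390), *mt-Nd1* (chrM:2751-3707), *mt-Cytb* (chrM:14145-15288) and *mt-Nd4* (chrM:10167-11544).

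After the limits on genes, transcripts and mitochondrial content 10307, 18907, 2203 and 7759 nuclei were kept, with medians of 2401, 2534, 8215 and 3278 UMIs (unique molecular identifiers, which count captured RNA molecules). From 45126915 to 79437196 UMIs were deposited per library. Between 24 and 101 barcodes of a library also occurred in another library. The libraries also stood apart in tissue content. *Agrp*, a neuropeptide of ARC neurons, was at 220.0, 1.49, 84.0 and 110.5 CPM (counts scaled to the same total in every library). *Pmch*, a neuropeptide of the lateral hypothalamus, was at 24.9, 3243, 35.1 and 23.4 CPM, and *Ppp1r1b*, abundant in the striatum, at 66.0, 3.73, 4.88 and 3.73 CPM. Of other ARC genes, *Pomc* was at 362, 37.6, 263 and 353 CPM and *Ghrh* at 82.6, 17.1, 42.2 and 63.4 CPM, whereas *Tac2* was alike in all libraries (66.2 to 74.0 CPM). DOCA-salt 2 was thus the lowest library for 3 of these 4 ARC genes. The part of tissue content and depth in the results below was not tested beyond the values given with them.

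Mitochondrial UMIs as a whole did not separate the treatments over all kept nuclei. Their part of all UMIs was 5.05% and 6.22% in the DOCA-salt pools and 5.39% and 5.85% in the Sham pools. Both Sham libraries lay between the DOCA-salt libraries, with means of 5.63% ± 0.83 (SD, n = 2) for DOCA-salt and 5.62% ± 0.32 (SD, n = 2) for Sham (exact permutation test, two-sided, p = 1). With 2 libraries on each side the smallest p that this test can give is 0.333, so no value tested in this way could pass 0.05. Within ranges of depth the order varied. At 1000 to 2500 UMIs per nucleus the part was 5.79% and 6.57% with DOCA-salt and 6.33% and 7.54% in Sham, and at 5000 to 25000 UMIs 4.82% and 6.18% against 5.28% and 5.56%, both overlapping. At 2500 to 5000 UMIs, with 4.70% and 5.66% against 6.61% and 5.88%, both DOCA-salt libraries were lower. The 10 genes together took 93.1%, 94.5%, 91.3% and 90.4% of the mitochondrial UMIs.

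*mt-Atp8* took a smaller share of mitochondrial UMIs in both DOCA-salt libraries than in either Sham library. It had 4834 UMIs in DOCA-salt 1, which is 0.256% of the mitochondrial UMIs (95% Wilson interval 0.249 to 0.263%), and 5104 in DOCA-salt 2, 0.118% (0.115 to 0.122%). In Sham 1 it had 6959 UMIs, 0.607% (0.593 to 0.621%), and in Sham 2 18404, 0.796% (0.785 to 0.808%). The groups did not overlap, and the higher DOCA-salt value was below the lower Sham value by more than the counting error, which is all that these intervals cover. The DOCA-salt libraries also differed from each other by more than the counting error. The mean was 0.187% ± 0.097 (SD, n = 2) with DOCA-salt and 0.701% ± 0.134 (SD, n = 2) in Sham, 3.75 times higher in Sham (exact permutation test, p = 0.333, the smallest possible).

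The question whether *mt-Atp8* was lower together with or relative to the other mitochondrial transcripts was put to a pair of edgeR fits on UMIs summed per library, each over all 16564 genes that passed the filter of low counts. In one fit libraries were scaled to all genes (TMM normalization), and in the other to the summed UMIs of the 12 mitochondrial genes other than *mt-Atp8*. The difference of *mt-Atp8* is then relative to those 12 genes. For any other mitochondrial gene the 12 include the gene itself, so its difference is relative to a sum of which it is part. The log2 difference of *mt-Atp8* between DOCA-salt and Sham was -2.02 ± 0.31 (SE) scaled to all genes and -1.92 ± 0.38 (SE) scaled to the other mitochondrial genes, hence nearly the same size on both scales. Neither passed a false discovery rate (FDR) of 0.05 in edgeR's quasi-likelihood test (adjusted p = 0.572 and 0.984, unadjusted p = 4.83e-04 and 0.00103). None of the 10 genes passed on either scale in all nuclei, at a background of 0.0% of all genes called when scaled to all genes (1399 of 16564 had an unadjusted p under 0.05) and 0.00604% when scaled to mitochondrial genes (552 had). The difference of *mt-Atp8* was lower than that of nearly all genes tested, with 31 of 16564 genes further down when scaled to all genes. As *mt-Atp8* was chosen for being lower in these libraries, this rank is a description and not evidence. In the edgeR fits that left out 1 library, the lone library of a treatment is assumed to vary like the other treatment. There its log2 difference lay between -2.58 and -1.46 relative to the mitochondrial genes and between -2.43 and -1.70 scaled to all genes. In DESeq2 it passed on both scales, where 109 of 16564 genes were called scaled to all genes and 27 scaled to mitochondrial genes.

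*mt-Nd3*, a small membrane subunit of complex I, was second in the size of its difference. It took 0.984% and 0.809% of mitochondrial UMIs with DOCA-salt and 1.69% and 1.30% in Sham. The groups did not overlap. Its log2 difference was -0.79 ± 0.21 (SE) scaled to all genes and -0.74 ± 0.23 (SE) scaled to the mitochondrial genes other than *mt-Atp8* (edgeR adjusted p = 0.572 and 0.984). Scaled to all genes it lay between -0.95 and -0.63 with 1 library left out. On that scale it passed in DESeq2 (adjusted p = 0.0163), where 109 of 16564 genes were called. *mt-Nd4l*, also a complex I subunit, took 1.52%, 1.09%, 1.94% and 1.52%. DOCA-salt 1 and Sham 2 differed in the third decimal only (1.519% and 1.523%), so the groups touched. Its log2 differences were -0.47 ± 0.21 and -0.41 ± 0.24 (SE).

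The other 7 genes stayed within a narrower range, with DOCA-salt means of 0.915 to 1.22 times the Sham means. *mt-Cytb* took 10.9% and 12.6% with DOCA-salt and 9.23% and 9.96% in Sham (log2 difference 0.28 ± 0.15 SE, scaled to mitochondrial genes). *mt-Atp6* took 16.7% in both DOCA-salt libraries and 13.3% and 15.8% in Sham (0.19 ± 0.14). Both were thus higher in both DOCA-salt libraries, without passing the test. *mt-Nd1* took 4.55%, 4.24%, 4.71% and 4.89% and *mt-Nd4* 9.86%, 9.09%, 9.94% and 10.3%, lower in both DOCA-salt libraries by a small margin. For the 3 complex IV genes the groups overlapped: *mt-Co1* took 18.8%, 18.6%, 19.5% and 16.3%, *mt-Co2* 14.0%, 15.2%, 14.4% and 14.5%, and *mt-Co3* 15.48%, 15.99%, 16.02% and 14.98%. In all, 5 genes were lower and 2 higher without overlap of the shares. Among the 5, the Wilson intervals overlapped for *mt-Nd4l* and *mt-Nd4*. They were 1.501 to 1.536% (DOCA-salt 1) and 1.508 to 1.539% (Sham 2) for *mt-Nd4l*. For *mt-Nd4* they were 9.817 to 9.902% (DOCA-salt 1) and 9.890 to 9.9995% (Sham 1). Counted per mitochondrial UMI, 11.1% of all tested genes were lower and 23.2% higher without overlap. Genes outside the mitochondrial genome also shift on that scale with the mitochondrial level of a library. These percentages are therefore no background for composition. Since shares add to a whole, a lower share of one gene raises the others. The 3 shortest genes together took 2.76%, 2.02%, 4.23% and 3.62%, and *mt-Nd2*, outside the 10, took 5.16%, 4.30%, 6.73% and 7.75%. The part of this in the higher shares was not tested.

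**Figure D1:**
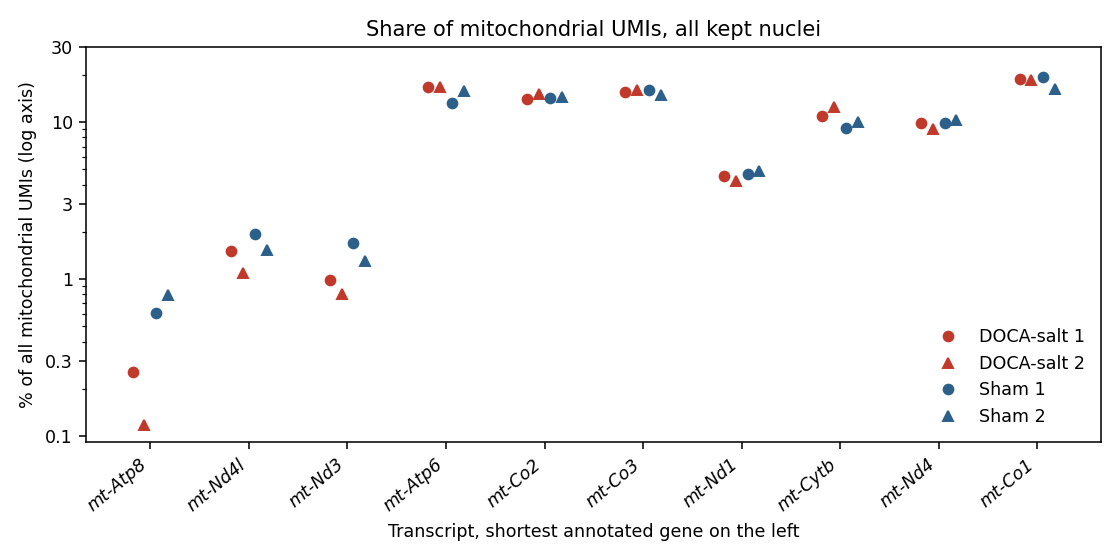
Share of all mitochondrial UMIs (%, log axis) of the 10 genes in each of the 4 libraries, ordered by annotated gene length; red points are DOCA-salt and blue points Sham, circles pool 1 and triangles pool 2. The Sham points of *mt-Atp8* (0.607% and 0.796%) lie above both DOCA-salt points (0.256% and 0.118%), while the complex IV genes overlap.

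UMIs per length were compared on the scale of percent of mitochondrial UMIs per kilobase of annotated gene. The RNA was read from its polyadenylated end, so UMIs need not scale with gene length. These values describe counts per length and do not rank transcript abundance. *mt-Atp6* and *mt-Co2* were highest, at 19.6 to 24.6 and 20.5 to 22.2, followed by *mt-Co3* at 19.1 to 20.4. *mt-Atp6* overlapped both of these over the 4 libraries. *mt-Co1* (10.5 to 12.6), *mt-Cytb* (8.07 to 10.998), *mt-Nd4* (6.60 to 7.51) and *mt-Nd1* (4.43 to 5.11) came next, of which only *mt-Co1* and *mt-Cytb* overlapped. The lowest were *mt-Nd4l* (3.69 to 6.53, around *mt-Nd1*), *mt-Nd3* (2.32 to 4.85) and *mt-Atp8* (0.580 to 3.90), each overlapping the next. Per length *mt-Atp8* was thus the lowest of the 10 genes with DOCA-salt and in Sham 1, and just above *mt-Nd3* (3.74) in Sham 2. *mt-Atp6*, on the same messenger, was the highest of the 10 in 3 libraries and was below *mt-Co2* and *mt-Co3* in Sham 1.

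Within these shared messengers the 2 genes were also counted against each other. Where on the messenger the reads fell was not examined, so these ratios describe counts and not separate molecules. *mt-Atp8* had 1.53 and 0.707 UMIs per 100 of *mt-Atp6* with DOCA-salt and 4.55 and 5.03 in Sham, which is 4.28 times higher in Sham on the means (exact permutation test, p = 0.333, the smallest possible). The groups did not overlap. *mt-Nd4l* had 15.4, 12.04, 19.5 and 14.7 UMIs per 100 of *mt-Nd4*, and there the groups overlapped (exact permutation test, p = 0.667).

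Gene length went along with the difference among the 10 genes, though not among all 13 mitochondrial genes. Of the 10, all 3 below 350 nucleotides had a log2 difference of -0.41 or lower when scaled to the mitochondrial genes other than *mt-Atp8*. All 7 above 680 nucleotides lay between -0.14 and 0.28. Outside the 10, a pair of longer complex I genes was also lower in both DOCA-salt libraries. *mt-Nd2* (1038 nucleotides) took 5.16%, 4.30%, 6.73% and 7.75% of mitochondrial UMIs, and *mt-Nd5* (1824 nucleotides) 1.65%, 1.16%, 1.82% and 1.76%. Scaled to all genes the log2 difference of *mt-Nd2* was -0.67, further down than that of the short *mt-Nd4l* (-0.47), and that of *mt-Nd5* was -0.42. For nuclear genes the share of large negative differences was highest among short transcripts, although the median did not follow length. Of 16 tested nuclear genes with a longest transcript of at most 350 nucleotides, 3 (18.8%) had a log2 difference below -1, compared with 30 of 411 (7.30%) above that and up to 700, 44 of 1918 (2.29%) up to 1500, 99 of 5035 (1.97%) up to 3000 and 112 of 9152 (1.22%) beyond. The median log2 difference in these groups was -0.39, 0.00, 0.16, 0.09 and -0.02, from the shortest to the longest. The quartiles were -0.31 and 0.29 in the group up to 700 nucleotides and -0.24 and 0.16 in the longest. The shorter of these 2 groups was thus wider in both directions. The shares below -1 were not tested against each other. The single gene that passed the test in all nuclei relative to mitochondrial genes, named here after its values were seen, was *Bc1*, a non-coding RNA of 168 nucleotides found in dendrites, at 0.412, 0.503, 4.11 and 5.36 UMIs per 100 mitochondrial UMIs (log2 difference -3.38 ± 0.23 SE, adjusted p = 0.0106). For *mt-Atp8* and *mt-Nd4l* gene length is not transcript length, because each lies on a messenger shared with a longer gene. The part of gene or transcript length in the difference of *mt-Atp8* was not tested. How fragments were selected by size in each library is not given in the sources used here. A difference between libraries in the retention of short fragments and a difference between treatments therefore cannot be told apart.

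**Figure D2:**
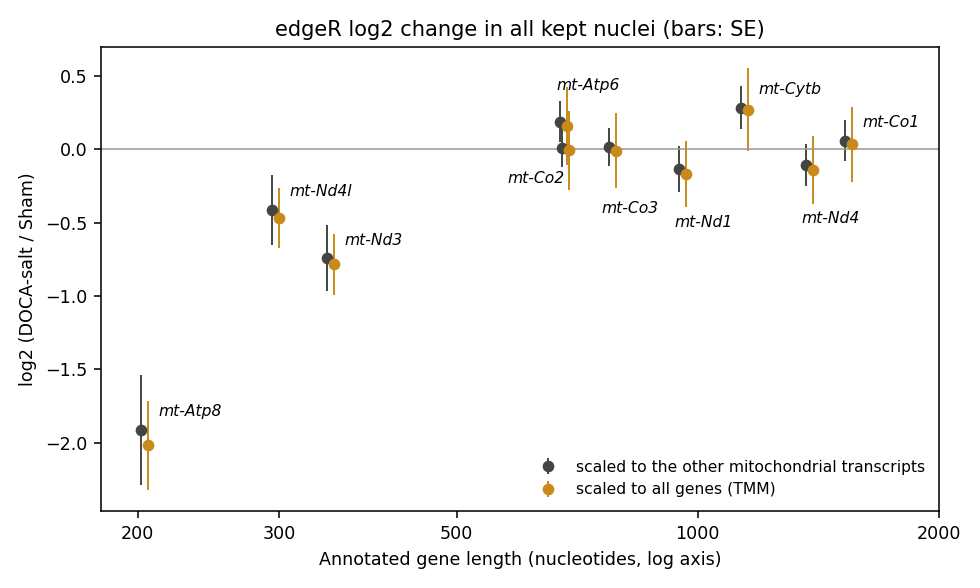
edgeR log2 difference (DOCA-salt over Sham, bars SE, 2 libraries per treatment) of the 10 genes in all kept nuclei against annotated gene length (log axis), scaled to the mitochondrial genes other than *mt-Atp8* (grey) and to all genes (ochre). *mt-Atp8*, *mt-Nd3* and *mt-Nd4l*, at 204 to 348 nucleotides, lie below 0 on both scales. The 7 longer genes lie from -0.17 (*mt-Nd1*, scaled to all genes) to 0.28 (*mt-Cytb*, scaled to mitochondrial genes).

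The separation of *mt-Atp8* was also seen among nuclei of like depth. In nuclei of 1000 to 2500 UMIs *mt-Atp8* took 0.274% and 0.141% of mitochondrial UMIs in the DOCA-salt libraries and 0.983% and 1.13% in Sham (102 nuclei in Sham 1). At 2500 to 5000 UMIs the values were 0.266%, 0.124%, 0.791% and 0.935%, and at 5000 to 25000 UMIs 0.230%, 0.102%, 0.584% and 0.679%. Both Sham libraries were above both DOCA-salt libraries in each of these ranges, and in all 4 libraries the share was lower in the deeper nuclei. Below 1000 UMIs Sham 1 had 12 nuclei with no *mt-Atp8* UMI among 585 mitochondrial UMIs, which allows a share of up to 0.513%, and the other libraries had 0.390%, 0.187% and 1.45%. When each nucleus was thinned to 1000 UMIs, 12.8%, 7.81%, 30.7% and 43.3% of nuclei held at least 1 *mt-Atp8* UMI (33.1%, 21.9%, 89.8% and 81.2% unthinned), leaving out 1978, 3603, 12 and 925 shallower nuclei. For *mt-Nd3* the thinned values were 40.03%, 39.6%, 61.4% and 55.9%, and for *mt-Nd4l* 52.2%, 48.2%, 65.4% and 60.7%. *mt-Co1* was found in at least 99.7% of thinned nuclei of every library. No cell type lacks mitochondrial transcripts, so a background level from free RNA could not be read from these shares.

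**Figure D3:**
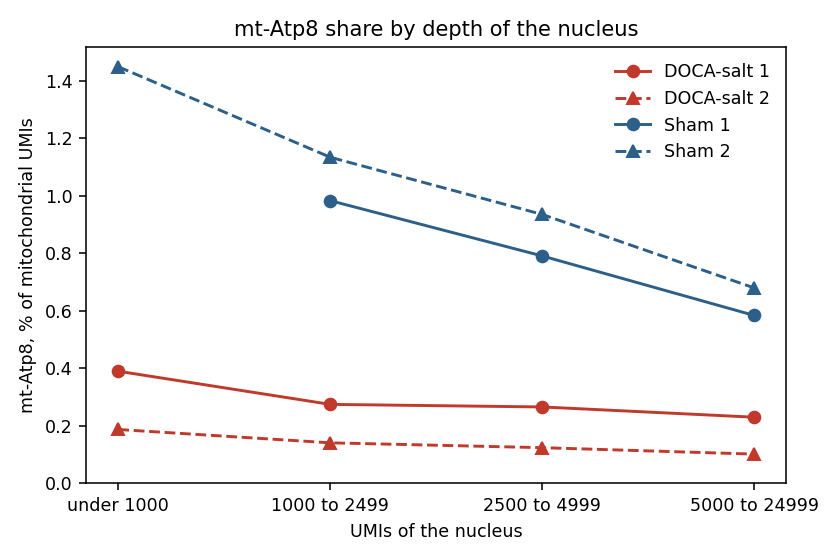
Share of *mt-Atp8* in mitochondrial UMIs (%) against the UMIs of the nucleus in 4 ranges, 1 line per library, red for DOCA-salt and blue for Sham, leaving out the 12 Sham 1 nuclei below 1000 UMIs. The Sham lines run above the DOCA-salt lines in every range and all lines come down from left to right, to 0.584% and 0.679% in Sham and 0.230% and 0.102% with DOCA-salt.

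Barcodes that the limit of 15% mitochondrial UMIs had removed showed the same order. In these 271, 579, 3 and 110 barcodes *mt-Atp8* took 0.156%, 0.119%, 0.326% and 0.643% of mitochondrial UMIs. The Sham 1 value rests on 3 barcodes.

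Nuclei were then assigned by marker genes to 10 classes, GABAergic and glutamatergic neurons and 8 non-neuronal classes. No mitochondrial gene was used for this. Of 6438, 11613, 1473 and 4777 neurons, 2991, 6544, 815 and 2476 were GABAergic and 613, 774, 68 and 373 glutamatergic. The remaining neurons were in none of the 10 classes and entered only where neurons are named as a whole. The gates were not pure: summed neuronal markers (*Snap25*, *Syt1*, *Rbfox3*, *Stmn2*, *Elavl4*) reached 68.3 to 101% of their level in neurons in the non-neuronal classes. No non-neuronal gate required neuronal markers to be low. Whether these classes held RNA of other cells or nuclei of other cell types was not tested. In the tanycyte gate the summed tanycyte markers were at 1312, 259, 271 and 688 CPM. The ependymal, mural and tanycyte gates held 20 to 74, 13 to 37 and 28 to 131 nuclei per library.

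*mt-Atp8* was lower in both DOCA-salt libraries than in both Sham libraries in all 10 classes. In oligodendrocytes, the myelinating glia, it took 0.262% and 0.120% of mitochondrial UMIs with DOCA-salt and 0.608% and 0.820% in Sham. In astrocytes the shares were 0.248%, 0.138%, 0.667% and 0.800%, in microglia, the resident immune cells, 0.239%, 0.103%, 0.565% and 0.780%, and in GABAergic neurons 0.252%, 0.111%, 0.626% and 0.768%. Glutamatergic neurons had 0.250%, 0.132%, 0.624% and 0.853%. Over the 10 classes *mt-Atp8* ranged from 0.194 to 0.298% in DOCA-salt 1 and 0.0977 to 0.138% in DOCA-salt 2. In Sham 1 it ranged from 0.537 to 0.667% and in Sham 2 from 0.491 to 0.853%, so that no class of a DOCA-salt library reached any class of a Sham library.

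Relative to the other mitochondrial genes the log2 difference of *mt-Atp8* lay between -1.81 (tanycytes) and -2.01 (microglia), and it fell past the threshold in 6 of 10 classes, against 0.0625% of all genes called lower over these fits. Since *mt-Atp8* was chosen from these same libraries, this contrast is also a description. In edgeR's test adjusted p was 6.99e-06 in oligodendrocytes, 4.43e-04 in glutamatergic neurons, 8.69e-04 in astrocytes, 0.00573 in endothelial cells, 0.00645 in microglia and 0.0434 in ependymal cells. It was 0.206 in oligodendrocyte precursors, 0.786 in mural cells, 0.953 in GABAergic neurons and 0.997 in tanycytes. Without Sham 2 the call was lost in glutamatergic neurons and astrocytes (adjusted p = 0.141 and 0.0999), and in ependymal cells it was kept only without DOCA-salt 1. GABAergic neurons and oligodendrocyte precursors passed without any one of the other 3 libraries but not without Sham 2, and tanycytes passed without DOCA-salt 1. Scaled to all genes the log2 difference lay between -1.73 and -2.18, and 5 classes passed (astrocytes, ependymal cells, oligodendrocytes, endothelial and mural cells) against 0.0443% of all genes. The classes share their libraries and are not replicates of the treatment. Of the other 9 genes none passed in any class on either scale. *mt-Nd3* came nearest, with an unadjusted p under 0.05 in edgeR in 9 of 10 classes on both scales. Scaled to all genes, the share of all genes with such a p was lowest in tanycytes (556 of 9266) and highest in oligodendrocytes (1313 of 11462). Scaled to mitochondrial genes, it was lowest in mural cells (113 of 5841) and highest in endothelial cells (940 of 9834). The log2 differences of *mt-Nd3* were -1.07 to -0.62 scaled to the mitochondrial genes other than *mt-Atp8*, and its groups did not overlap in any class. *mt-Nd4l* was negative in all 10 classes (-0.61 to -0.24), with groups apart in 5. Shares of longer genes were also apart, lower with DOCA-salt in 8 classes for *mt-Nd1* and 3 for *mt-Nd4*. They were higher in 9 each for *mt-Atp6* and *mt-Cytb* and in 1 for *mt-Co1*. Outside the 10 genes, *mt-Nd2* was lower in all 10 classes and *mt-Nd5* in 8. No share over all genes was counted by class, so these counts of classes stand without a background. Because the classes share their libraries, a difference between libraries can recur in every class.

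**Figure D4:**
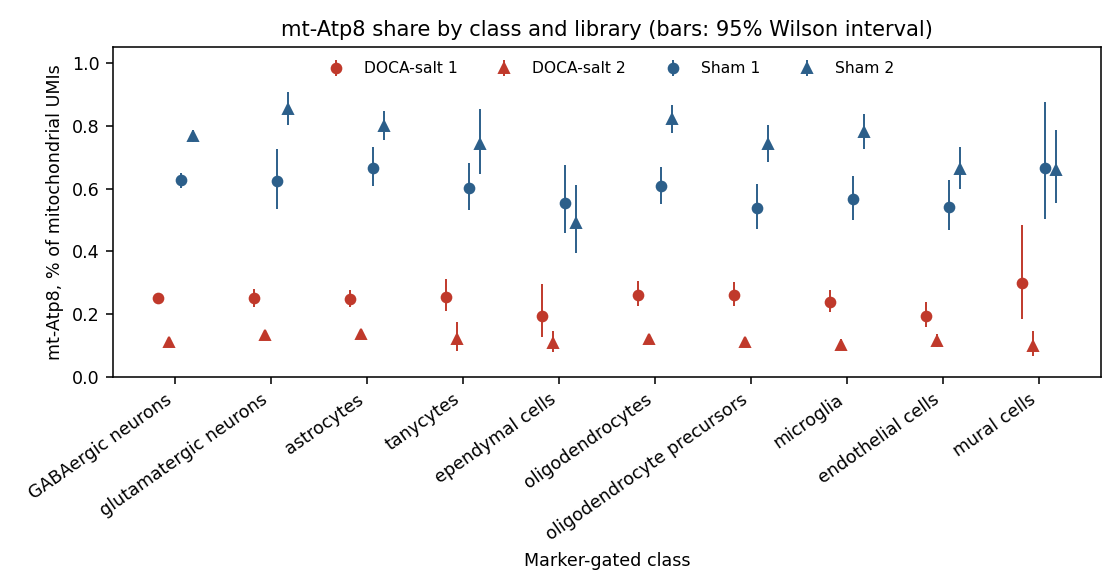
Share of *mt-Atp8* in mitochondrial UMIs (%) in 10 marker-gated classes and 4 libraries, red for DOCA-salt and blue for Sham, circles pool 1 and triangles pool 2, with 95% Wilson intervals that cover counting error only. All Sham points (0.491 to 0.853%) lie above all DOCA-salt points (0.0977 to 0.298%).

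The treatment difference was then compared between each non-neuronal class and neurons in a single fit, with the library as a block. None of the 10 genes passed for a difference that depended on the class, in 80 tests, at a background of 0.0456% of all genes. For *mt-Atp8* the class-dependent part was between -0.07 (microglia) and 0.19 (ependymal cells) on the log2 scale, with adjusted p of at least 0.898. None of the 10 had an unadjusted p under 0.05 in these tests. Because the gates were not pure, a difference between classes could be hidden here.

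The composition of mitochondrial UMIs itself, which was not used to choose the genes, was also nearly the same in every class of a library. Gates that are not pure could hide differences in this comparison too. Each non-neuronal class was compared with neurons of the same library, relative to the other mitochondrial genes, and 1 of 80 tests passed. This was *mt-Nd1* in astrocytes (log2 difference -0.09 ± 0.04 SE, edgeR adjusted p = 0.0445). That call was lost without DOCA-salt 1, DOCA-salt 2 or Sham 2. Of all genes 38.0% were called on this scale, but this is no background for composition. Genes outside the sum that sets the scale also shift with the mitochondrial level of a class. In astrocytes 10404 of 14022 genes were called lower than in neurons, with a median log2 difference of -0.63. The genes within that sum cannot all differ in the same direction, so their small differences are partly set by the scaling. *mt-Co2* differed from neurons by at most 0.03 in any class, *mt-Atp6* by at most 0.03 and *mt-Co3* by at most 0.04. *mt-Atp8* ranged from -0.35 in ependymal cells to 0.07 in astrocytes without passing (lowest adjusted p = 0.103, endothelial cells). It did pass in microglia with a gate of 3 markers (-0.15, edgeR adjusted p = 0.0363) and in endothelial cells without DOCA-salt 1 (-0.19, adjusted p = 0.0257). Within a library the highest class exceeded the lowest by no more than 1.10 times for *mt-Atp6*, 1.39 times for *mt-Nd3* and 1.74 times for *mt-Atp8*.

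The level of mitochondrial transcripts differed between classes. Over all kept nuclei astrocytes had the highest mean share of mitochondrial UMIs in both treatments, with 6.45%, 8.23%, 7.14% and 7.49%, compared with 4.61%, 5.72%, 5.08% and 5.38% in neurons of the same libraries. Endothelial cells had 7.17%, 6.94%, 6.11% and 6.72%. Glutamatergic neurons had the lowest, 3.87%, 4.84%, 3.55% and 4.15%, below every library of the astrocytes and endothelial cells. Scaled to all genes, 46 of 80 tests of the 10 genes against neurons passed, all of them higher in the non-neuronal class, with 7.66% of all genes called higher. In astrocytes all 10 genes rose above neurons, by log2 differences of 0.50 (*mt-Nd1*) to 0.66 (*mt-Nd3*). In oligodendrocytes *mt-Co1* was higher by 0.40 ± 0.03 and in microglia by 0.31 ± 0.02 (SE, adjusted p = 9.12e-10 and 2.16e-15). In tanycytes, ependymal and mural cells no gene passed.

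The depth of nuclei moved with the level, since astrocytes had medians of 1424, 1195, 5250 and 2521 UMIs, against 3031.5, 2941, 8926 and 4093 in neurons. Among nuclei of 1000 to 5000 UMIs, a comparison added after seeing the data, astrocytes had 6.98%, 8.31%, 6.81% and 8.23% and neurons 4.66%, 5.43%, 6.29% and 5.94%. Astrocytes were above neurons in 4 of 4 libraries, by 2.00 percentage points ± 1.02 (SD, n = 4), in an exact paired permutation test with p = 0.125, the smallest that 4 libraries allow. Endothelial cells, microglia, oligodendrocytes and tanycytes were also above neurons in 4 of 4 libraries in this range. The tanycyte gate of DOCA-salt 2 held 28 nuclei in all, with a median of 12172.5 UMIs. Over all kept nuclei tanycytes were above neurons in 3 of 4 libraries. Within 1000 to 5000 UMIs astrocytes were not the highest class throughout. Endothelial cells had 7.44%, 6.68%, 8.10% and 6.99% there, and mural cells, with few nuclei, 7.65%, 7.69%, 5.80% and 7.69%.

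**Figure D5:**
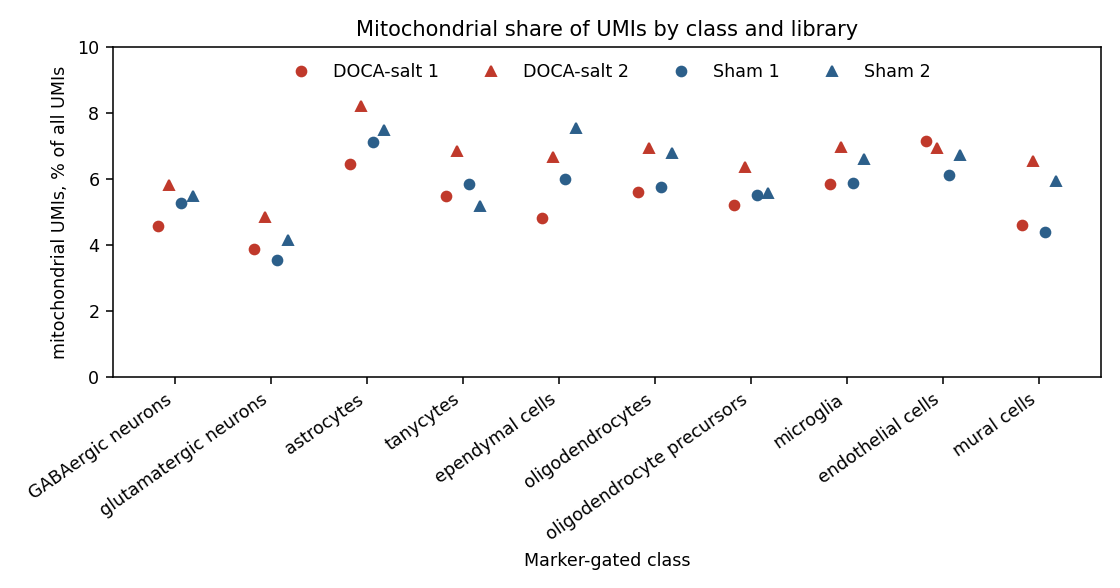
Mitochondrial UMIs as a percentage of all UMIs in 10 marker-gated classes and 4 libraries, red for DOCA-salt and blue for Sham, circles pool 1 and triangles pool 2. In endothelial cells both DOCA-salt points lie above both Sham points, in the other classes red and blue mix, and astrocytes (6.45 to 8.23%) lie above glutamatergic neurons (3.55 to 4.84%).

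Nuclear genes of the same processes did not pass the test. Of 21 symbols listed for complex V subunits 17 were found and tested, and 0 were called (0 at an unadjusted p under 0.05). Their median log2 difference was 0.19, with 15 of 17 above 0, compared with a median of 0.03 over all genes. *Atp5d*, a subunit of the catalytic part, was at 302 and 493 CPM with DOCA-salt and 269 and 234 CPM in Sham (log2 difference 0.63 ± 0.29 SE, edgeR adjusted p = 0.607), and *Atp5g1*, a subunit of the membrane ring, at 248, 411, 252 and 241 CPM (0.38 ± 0.29, adjusted p = 0.714). For both DOCA-salt 2 was the highest library. Without DOCA-salt 2 the median of the list was -0.20, with 1 of 17 above 0. Without DOCA-salt 1 it was 0.52, with 16 of 17 above 0. Without Sham 2 the median was -0.00, with 6 of 17 above 0. The direction of this list therefore depended on which libraries were included.

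Of 28 genes for the transcription, processing and decay of mitochondrial RNA all were tested and 0 were called in edgeR. An unadjusted p under 0.05 was found for 2 of the 28, and for 1399 of 16564 genes in the same fit. The median of the list was 0.18, compared with 0.03 over all genes. Of the list 22 of 28 were above 0, and 20 to 23 when 1 library was left out. The share of all genes above 0 was not counted. *Elac2*, which cuts tRNAs from the mitochondrial precursors, was at 28.0 and 26.0 CPM with DOCA-salt and 19.0 and 20.1 CPM in Sham (log2 difference 0.42 ± 0.15 SE, adjusted p = 0.572). *Fastk*, a mitochondrial RNA-binding protein, was at 51.9, 54.0, 38.0 and 42.3 CPM (0.36 ± 0.15, adjusted p = 0.586). Both, the 2 genes of largest absolute difference in this list, were higher in both DOCA-salt libraries. They were named for the size of their difference, so this is a description. Of all tested genes 23.2% were higher without overlap when counted per mitochondrial UMI. That is another scale than CPM, so it is no background for these 2 genes.

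The genes whose pattern was most like that of *mt-Atp8* were sought over 40 sums (10 classes in 4 libraries) among 5419 genes tested in every class, by the Pearson correlation of log2 CPM centred within each class. Outside the mitochondrial genome these were *Mapt* (r = 0.962), *Cmip* (0.960), *Hmgb1* (0.948), *Gm42418* (0.947) and *Map1b* (0.947), a description without a test because the 40 sums come from only 4 libraries. *Gm42418*, a gene that overlaps ribosomal RNA sequence, was at 3581, 898, 10602 and 9209 CPM, and *Mapt*, which encodes the microtubule protein tau, at 459, 395, 643 and 688 CPM, hence in the same order of treatments. Of the 10 mitochondrial genes *mt-Nd3* (0.848) and *mt-Nd4l* (0.827) were most like *mt-Atp8*, and of the other 3 *mt-Nd5* (0.928) and *mt-Nd2* (0.910) were more so. *mt-Atp6*, which shares the messenger of *mt-Atp8*, had an r of -0.492.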

How the data were processed

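Nuclei were isolated from ARC punches of pooled mice and polyadenylated RNA was read with a 10x Genomics 3' kit. The deposited matrices hold unnormalized UMI counts (counts), made by the authors with Cell Ranger 3.0.1 on mm10 per the submitters' processing notes, for 10765, 19754, 2805 and 8325 barcodes.

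Following the study's methods, nuclei were kept with 200 to 7000 genes, under 25000 UMIs and under 15% mitochondrial UMIs. A nucleus entered a non-neuronal class if at least 2 of its markers were detected and their share was 3 times that of its library. Nuclei meeting 2 or more such gates (119 to 850 per library) were left out of the classes, and no doublet caller was run. With these, 6.13% to 18.3% of nuclei were neither in a non-neuronal class nor among the neurons. Neurons that were neither GABAergic nor glutamatergic were also in none of the 10 classes. UMIs were summed per library and class and tested with edgeR 4.0.16 in R 4.3.3 (filterByExpr, quasi-likelihood test, Benjamini-Hochberg adjustment over all tested genes, FDR under 0.05), with DESeq2 1.42.0 as an alternative. Permutation tests were exact and two-sided (scipy 1.17.1). Likeness used log2 (CPM + 1). Intervals and limits from 0 counts cover counting error only. The labels name replicates, which the study describes as pools of mice, and do not say how these were processed in time. The p values therefore measure only the spread between these pools. Pool numbers were not taken as pairs (r = -0.223 between the deviations of DOCA-salt 1 and Sham 1 over 16564 genes).

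The genes and lists were chosen with earlier results of these data known. Named genes were the 10 mitochondrial genes, the called genes of each nuclear list or else the 2 of largest absolute difference, and the 5 genes most correlated with *mt-Atp8*. The alternatives were DESeq2, RLE size factors, no filter of low counts, a block on pool number, other mitochondrial references, a gate of 3 markers, no mitochondrial limit, nuclei of 1000 to 5000 UMIs, thinned libraries and leaving out each library. The scripts were tested on simulated data. All 13 mitochondrial gene IDs matched GENCODE M21 on GRCm38.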

Additional observations from a re-analysis of the deposited data

How the results depend on the processing

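The log2 difference of *mt-Atp8* relative to the other mitochondrial genes was negative in all 13 alternatives in all nuclei and in all 74 within classes, while its side of the threshold moved. In all nuclei it was -2.01 with the replicate block (adjusted p = 3.13e-04) and also -2.01 with the crossed replicate block, and -1.91 in DESeq2 (adjusted p = 1.60e-04), all past the threshold. Leaving out each library gave -2.58 to -1.46 in all nuclei, -2.65 to -1.47 in GABAergic neurons, -2.51 to -1.59 in glutamatergic neurons, -2.42 to -1.57 in astrocytes, -2.48 to -1.40 in tanycytes, -2.28 to -1.43 in ependymal cells and -2.55 to -1.31 in oligodendrocyte precursors. The range was widest in mural cells, at -2.76 to -1.15. Calls were lost without Sham 2 in glutamatergic neurons and astrocytes (adjusted p = 0.141 and 0.0999), without DOCA-salt 2, Sham 1 or Sham 2 or with thinning (-1.85) in ependymal cells, and with the stricter gate in microglia (-2.04). They were gained in oligodendrocyte precursors at 1000 to 5000 UMIs (-2.36) and in mural cells without the mitochondrial limit (-2.48). Fits without a library that leave 1 sample in a treatment assume that it varies like the other treatment. The causes of these moves were not tested.

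The number of the 10 genes called in all nuclei, 0 in edgeR, was 2 in DESeq2, 1 with the crossed block and 0 to 2 with a library left out when scaled to all genes, and 1 in DESeq2, with the block and with the crossed block and 0 to 1 with a library left out when scaled to mitochondrial genes. Over all genes the calls were 0 and 1 in edgeR on these scales, 109 and 27 in DESeq2, 0 and 26 with the block and 58 and 68 with the crossed block, which joins DOCA-salt 1 with Sham 2 and was chosen after seeing the data. Without DOCA-salt 1 they were 938 and 762, and without DOCA-salt 2 414 and 321. The block is not backed by a pairing in the labels. Among nuclei of 1000 to 5000 UMIs the share of mitochondrial UMIs was 5.09% and 5.96% with DOCA-salt and 6.58% and 6.48% in Sham, without overlap. The difference (DOCA-salt minus Sham) was -1.004 percentage points, compared with 0.00998 in all kept nuclei. Taken by narrower range, the groups overlapped at 1000 to 2500 UMIs and not at 2500 to 5000 UMIs. Among the nuclei of 1000 to 5000 UMIs the share of *mt-Atp8* differed by -0.715 percentage points (-0.514 in all). Its UMIs per 100 of *mt-Atp6* differed by -5.28 (-3.67 in all). Differences from neurons in the mitochondrial composition passed in 1 test of 80, in 2 with the stricter gate (*mt-Atp8* in microglia added), in 0 without the filter and in 0 to 2 with a library left out. Of the complex V list 0 to 4 genes were called with a library left out. Depth also limits the small classes, with 27 *mt-Atp8* UMIs in tanycytes of DOCA-salt 2 and 21 in ependymal cells of DOCA-salt 1.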
